A study of Mus musculus with 10 samples.

Results

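The collagens outside type IV were taken as every gene symbol that consists of Col, a type number, the letter a and a chain number, with the Col4a genes left out. This gave 37 of the 22878 symbols in the expression tables, and the 6 type IV genes were kept only for contrast. For the 5 of the 37 genes with more than 1 listed transcript, the transcript with the most reads on average over the libraries was used. RNA-Seq of polyA RNA was done on the R1 mouse ES cell line after transduction with lentivirus, which carried as control a luciferase hairpin (shLuc) or a hairpin that targets Smyd5 (shSmyd5), the gene of a methyltransferase of histone H4K20, and all cells went through puromycin selection. The labels state that ES cells for RNA-Seq were passaged on gelatin with the GSK3 inhibitor CHIR9901 in order to clear feeder fibroblasts, a step that the study's methods give for ChIP. Embryoid bodies (EBs), which are aggregates that differentiate into a mixture of cell types, were formed in medium lacking LIF and sampled at 24 h and on day 6, day 10 and day 14. Each hairpin and stage had 1 library, 10 in all, so a difference at a single stage has no replicate check. Which of the study's Smyd5 hairpins these cells carried is not given in the sources used here.

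Values are RPKM (reads scaled to the length of the transcript and the mapped reads of the library), which allow levels of different genes to be compared per length. Reads in genes ranged from 3895537 in shLuc ES cells to 43377815 in shLuc EBs of day 6. Smyd5 itself was lower in shSmyd5 at all 5 stages, with the largest ratio at day 6 (RPKM 15.4 in shLuc and 0.492 in shSmyd5) and the smallest at day 14 (13.1 and 6.88). Folds between the hairpins followed base composition over all genes, with a rank correlation of fold and GC content of -0.684 in ES cells, then 0.576, -0.024, -0.386 and 0.324 in EBs of 24 h, day 6, day 10 and day 14. The collagens had a median transcript GC content of 55.6%, against 49.8% over all genes, so folds freed of the trend on GC content and transcript length are given beside those from the deposited values. The names of the shLuc tables of day 6, day 10 and day 14 lack a part that those of the other libraries carry. Whether these libraries were processed in another way is not known. If they were, hairpin and processing cannot be told apart at these stages.

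Collagens are secreted trimers whose chains share a repeat of glycine followed by 2 other residues (Gly-X-Y), which winds the chains into the triple helix. Fibrillar collagens (types I, II, III, V and XI among them) form the banded fibrils of connective tissue, cartilage and embryonic mesenchyme, and FACIT collagens (IX, XII and XIV among them) sit on the surface of those fibrils. Type VI forms beaded filaments around cells, the multiplexins XV and XVIII lie in basement membrane zones, and further collagens span the plasma membrane or form short-chain networks. ES cells make little fibrillar collagen, and its genes are classical markers of mesenchyme in differentiating cultures.

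The repeat can be read directly in the genes, and its codons are rich in G and C. In the coding sequences of the GENCODE mouse release M1, all 37 genes held an unbroken run of 10 or more triplets that begin with a glycine codon (GGN). The longest run was 338 triplets in Col1a1, 339 in Col1a2, 344 in Col3a1 and 339 in Col5a2, as against 113 in Col9a3 and 30 in Col18a1. The median GC content was 63.2% within the runs and 57.3% in the rest of the coding sequence, and the run was the richer part in 34 of 37 genes. A unit of the family is the exon of 54 bases that codes for whole Gly-X-Y triplets. Coding exons of that length, counted without a check of their codons, were present in 34 of 37 genes. There were 21 in Col1a1, 24 each in Col1a2, Col3a1 and Col5a2, 14 in Col9a3 and 3 in Col18a1. The first such exon with 6 in-frame triplets follows for the genes on which the results turn, 5′ to 3′ in the sense of the gene, with the glycine codon that opens each triplet in capitals and any further glycine codon, as in Col1a1, in lower case (build NCBIM37, the same as mm9).
Col1a1, exon 8, chr11:94801218-94801271, plus strand: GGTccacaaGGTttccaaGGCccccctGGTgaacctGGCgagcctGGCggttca
Col1a2, exon 8, chr6:4465481-4465534, plus strand: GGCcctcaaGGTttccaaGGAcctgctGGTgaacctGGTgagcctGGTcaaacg
Col3a1, exon 6, chr1:45382205-45382258, plus strand: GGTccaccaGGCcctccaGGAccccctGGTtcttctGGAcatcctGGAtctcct
Col5a2, exon 6, chr1:45491737-45491790, minus strand: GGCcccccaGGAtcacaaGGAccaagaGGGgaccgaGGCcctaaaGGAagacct
Col9a3, exon 5, chr2:180336287-180336340, plus strand: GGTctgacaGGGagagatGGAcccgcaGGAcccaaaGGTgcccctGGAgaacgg
Col18a1, exon 27, chr10:76530124-76530177, minus strand: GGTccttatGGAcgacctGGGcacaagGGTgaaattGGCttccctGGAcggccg
Col3a1 and Col5a2 are neighbours that face each other on chromosome 1 (45368383 to 45406551 and 45431166 to 45560127), and Col18a1, Col6a1 and Col6a2 lie within 1 stretch of chromosome 10 on the minus strand (76058507 to 76629293). The libraries do not keep the strand of a read, so reads from an overlapping antisense transcript would be counted with the gene.

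Of the 37 genes, 16 reached an RPKM of 3 in at least 1 library. They comprised 7 of 11 fibrillar genes, 5 of 9 FACIT genes, 3 of 6 beaded filament genes and 1 of 2 multiplexin genes. None of the 3 short-chain network genes (types VIII and X), the 4 transmembrane genes (XIII, XVII, XXIII and XXV), the anchoring fibril gene Col7a1 or Col28a1 did so. The remaining 21 genes peaked at an RPKM of 0.0246 (Col28a1) to 2.73 (Col23a1), and 14 of them stayed under 1 in every library. Among the low genes were the cartilage chains Col10a1, a product of hypertrophic chondrocytes, which peaked at 0.466, and Col11a2, which peaked at 0.351.

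Type I and type III collagen came on between day 6 and day 10. Col1a1, the α1 chain of type I collagen, had an RPKM of 0.534, 0.499, 0.363, 143.8 and 855.8 in shLuc, in the order ES cells, 24 h, day 6, day 10, day 14, and 0.237, 0.0712, 1.83, 48.8 and 529.4 in shSmyd5. Its partner Col1a2 stood at 0.139, 0.375, 0.449, 103.5 and 856.5 in shLuc and at 0.0099, 0.204, 0.888, 30.5 and 422.4 in shSmyd5. Col3a1, which co-assembles with type I in extensible tissues, stood at 0, 0.131, 0.0083, 136.7 and 634.5 in shLuc and at 0, 0, 0, 32.4 and 347.0 in shSmyd5. All 3 genes were under an RPKM of 2 through day 6 with either hairpin and over 30 at day 10, and at day 10 and day 14 the shSmyd5 value was the lower one. With 0 reads of Col3a1 in shLuc ES cells, the day 14 level was at least 6570-fold higher than the level that 3 reads would give.

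**Figure D1:**
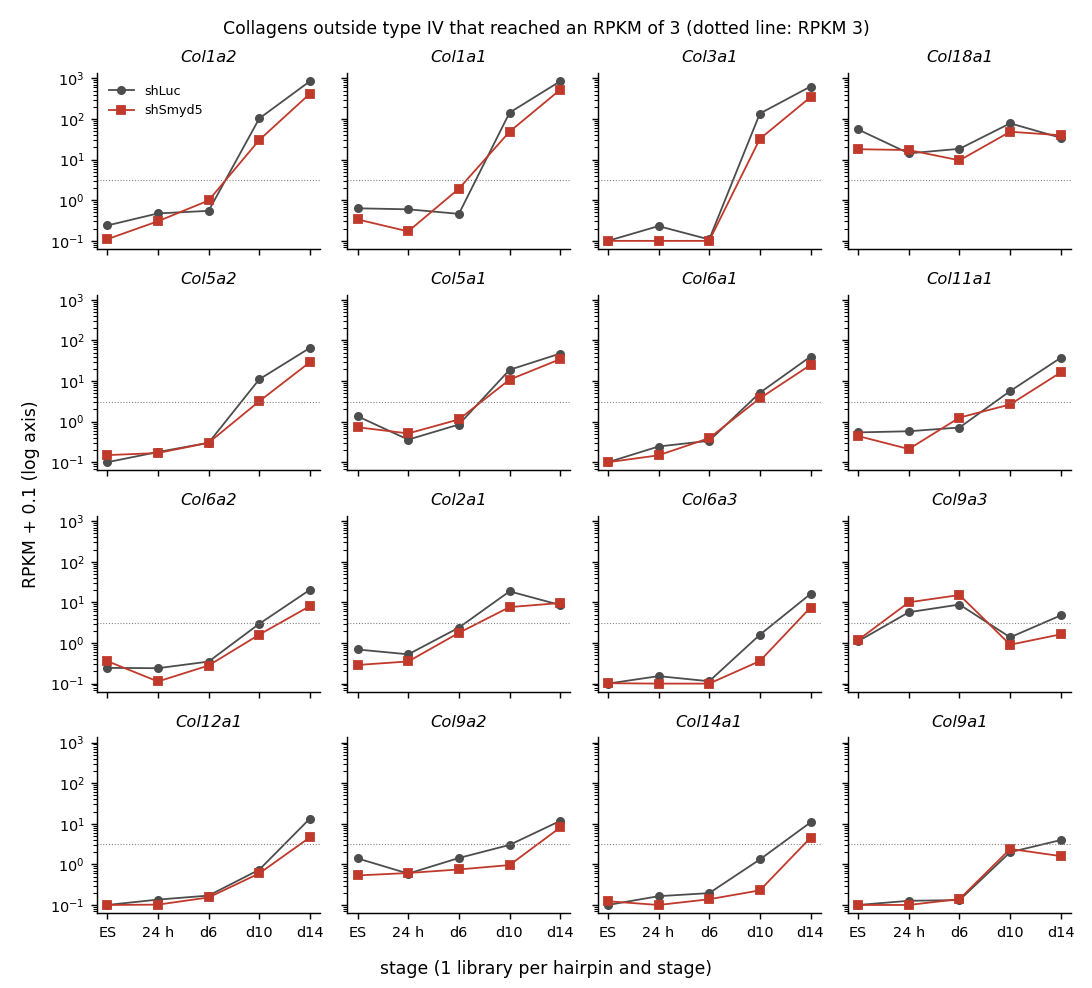
RPKM plus 0.1 (log axis) of the 16 collagens outside type IV that reached an RPKM of 3, by stage, with 1 library per point, grey circles for shLuc and red squares for shSmyd5. The fibrillar and beaded filament genes are near the bottom of the axis through day 6 and climb at day 10 and day 14, with shSmyd5 under shLuc in most panels, whereas Col18a1 is high throughout and Col9a3 peaks at day 6.

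Type V and type XI chains, which nucleate and limit the width of type I and type II fibrils, followed the same course at lower levels. Col5a1 was already detected early, with an RPKM of 1.26, 0.260, 0.750, 18.8 and 47.5 in shLuc and 0.627, 0.412, 1.03, 10.7 and 34.5 in shSmyd5. Col5a2 was at 0, 0.0787, 0.201, 10.9 and 65.4 in shLuc and 0.0498, 0.0686, 0.202, 3.08 and 29.1 in shSmyd5. Col11a1 had 0.443, 0.480, 0.617, 5.56 and 37.4 in shLuc and 0.341, 0.112, 1.16, 2.55 and 16.2 in shSmyd5. The cartilage collagen Col2a1 departed from this course, as its shLuc value peaked at day 10. Its RPKM was 0.593, 0.426, 2.30, 18.6 and 8.52 in shLuc and 0.188, 0.251, 1.68, 7.57 and 9.57 in shSmyd5. From day 10 to day 14 Col2a1 thus went to 0.457 of its value in shLuc and to 1.26 times its value in shSmyd5, and the 2 hairpins ended close together.

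Type VI collagen needs 3 different chains, and all 3 appeared late. Col6a1 had an RPKM of 0, 0.144, 0.238, 5.04 and 39.9 in shLuc and 0, 0.0481, 0.293, 3.65 and 24.8 in shSmyd5. Col6a2 had 0.144, 0.140, 0.249, 2.87 and 20.3 in shLuc and 0.258, 0.0128, 0.179, 1.51 and 8.02 in shSmyd5. Col6a3, the longest of these chains, had 0, 0.0528, 0.0143, 1.50 and 16.1 in shLuc and 0.0023, 0, 0, 0.260 and 7.38 in shSmyd5. The later type VI chains Col6a4, Col6a5 and Col6a6 stayed under an RPKM of 1 in every library.

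Among the FACIT genes, Col12a1 and Col14a1, which decorate type I fibrils, were late as well. Col12a1 had an RPKM of 0, 0.0357, 0.0704, 0.639 and 13.4 in shLuc and 0, 0.0020, 0.0533, 0.500 and 4.54 in shSmyd5. Col14a1 had 0, 0.0646, 0.0961, 1.22 and 10.7 in shLuc and 0.0236, 0, 0.0385, 0.129 and 4.43 in shSmyd5. The 3 chains of type IX collagen, which in cartilage covers type II fibrils, did not share a course. Col9a1 had 0, 0.0268, 0.0319, 1.90 and 3.88 in shLuc and 0, 0, 0.0399, 2.30 and 1.50 in shSmyd5. Col9a2 had 1.30, 0.493, 1.34, 2.92 and 11.7 in shLuc and 0.434, 0.513, 0.650, 0.862 and 8.01 in shSmyd5. Col9a3 ran the other way, with 1.01, 5.64, 8.76, 1.28 and 4.70 in shLuc and 1.09, 9.96, 15.1, 0.810 and 1.54 in shSmyd5. Its level was higher in shSmyd5 at 24 h and day 6 and higher in shLuc at day 14, and at 24 h and day 6 neither of its partners reached an RPKM of 3.

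Col18a1, the basement membrane collagen whose C-terminal fragment is endostatin, had the highest RPKM of the 37 genes in ES cells. Its own level peaked at day 10 with both hairpins. Its RPKM was 55.3, 14.2, 18.4, 78.5 and 34.5 in shLuc and 18.01, 17.2, 9.53, 48.7 and 39.8 in shSmyd5. It was the only one of the 37 genes at an RPKM of 3 or more in ES cells and it stayed above 9 in all 10 libraries. Its relative Col15a1 peaked at 1.63, in shLuc EBs of day 14.

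The make-up of the collagen RNA outside type IV differed almost wholly between day 6 and day 14. The summed RPKM of the 37 genes was 62.7, 25.2, 35.6, 544.4 and 2676 in shLuc and 22.7, 30.9, 35.1, 201.7 and 1499 in shSmyd5. Col18a1 made up 88.2% of it in shLuc ES cells and 79.4% in shSmyd5 ES cells, and 1.29% and 2.66% at day 14. Col9a3 accounted for 24.6% in shLuc and 43.1% in shSmyd5 at day 6. Col1a1, Col1a2 and Col3a1 together made up 2.30% and 7.75% at day 6, 70.5% and 55.4% at day 10, and 87.7% and 86.6% at day 14. The number of genes at an RPKM of 3 or more was 1, 2, 2, 9 and 16 in shLuc and 1, 2, 2, 8 and 14 in shSmyd5.

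**Figure D2:**
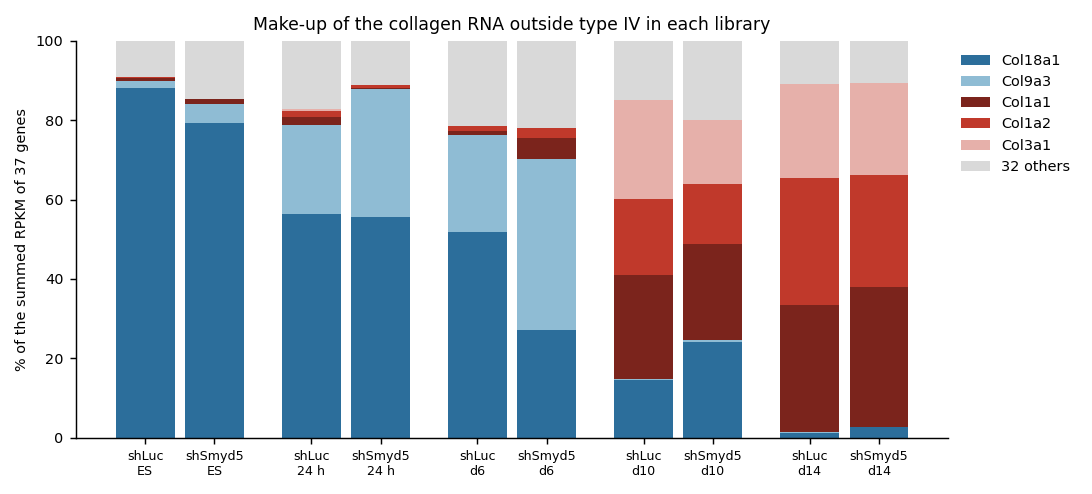
Share (%) of the summed RPKM of the 37 genes taken by Col18a1, Col9a3, Col1a1, Col1a2, Col3a1 and the 32 others, 1 bar per library. Col18a1 fills 88.2% of the shLuc ES cell bar, and the 3 genes of type I and III collagen fill 87.7% and 86.6% of the bars at day 14.

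The difference between late and early stages was tested with both hairpins of a stage as its repeats (edgeR quasi-likelihood test with Benjamini-Hochberg adjustment, mean of day 10 and day 14 less mean of ES cells and 24 h EBs, 12277 genes whose mean RPKM was 1 or more). Of the 37 collagens, 16 passed that filter on mean level and 21 were not tested. The tested set was Col23a1 and the genes described above other than Col9a1. Of the 16, 14 rose and none fell, where 30% of all tested genes rose and 26% fell. A gene with a high mean over the 10 libraries and low early values had to be late, so this count describes which collagens were abundant enough to be tested. On the scale of log2 (mean RPKM + 0.1) the median difference was 5.19 over the 16 and 0.29 over all tested genes. The smallest rise was that of Col9a2 (log2 difference 2.31 in the fit, adjusted p = 0.000609). Col18a1 (0.70, adjusted p = 0.0553) and Col9a3 (-1.03, adjusted p = 0.0663) did not pass, though both did with the ES cells or the day 14 EBs left out, with no filter on low counts and with DESeq2. Col18a1 also passed with library totals only (0.87, adjusted p = 0.0254) and with limma (1.10, adjusted p = 0.0101), and its sign turned with an offset for GC content and length (-0.090), with which Col9a3 passed (-1.42, adjusted p = 0.0248). Fitted differences of genes with libraries at 0 reads, such as Col3a1 and Col6a1, depend on the prior count of the fit and are not given.

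The comparison of hairpins asked how the knockdown of Smyd5 altered collagen RNA in the course of differentiation. At day 10 and day 14 most of the expressed collagens were lower in shSmyd5 EBs. At day 10, 9 of the 37 genes had an RPKM of 3 or more in 1 or both libraries, and 6 of them were at least 2-fold lower in shSmyd5 and none 2-fold higher, against 6.51% of all genes at that RPKM lower and 3.15% higher. Their median log2 fold (RPKM + 0.1, shSmyd5 minus shLuc) was -1.29, against -0.05 over all genes, and all 9 were below 0. At day 14, 9 of 16 genes were at least 2-fold lower and none 2-fold higher, against 4.07% of all genes lower and 3.17% higher. Their median log2 fold was -1.07, against 0.01 over all genes, and 14 of 16 were below 0. Some of the genes counted as 2-fold lower reached an RPKM of 3 in shLuc only. These were Col11a1 at day 10 (5.56 in shLuc and 2.55 in shSmyd5) and, at day 14, Col9a1 (3.88 and 1.50) and Col9a3 (4.70 and 1.54). A gene that enters this way is lower in shSmyd5 by the filter itself, and no collagen entered through shSmyd5 only. After removal of the GC and length trend, 4 genes were 2-fold lower at day 10 (median -0.95, 9 of 9 below 0) and 9 at day 14 (median -1.15, 16 of 16 below 0).

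Among the 9 genes at an RPKM of 3 or more at day 10, Col3a1 had the lowest log2 fold, -2.07 (95% interval -2.13 to -2.02). These intervals are exact binomial ones from the reads of the 2 libraries and cover counting error only. Col5a2 followed at -1.80 (-1.97 to -1.63), Col1a2 at -1.76 (-1.82 to -1.70) and Col1a1 at -1.56 (-1.61 to -1.51). Col2a1 (-1.29) and Col11a1 (-1.09) were the other 2 genes past 2-fold. Col5a1 (-0.80), Col18a1 (-0.69) and Col6a1 (-0.46) were lower by less. Of the genes under an RPKM of 3 at that stage, Col14a1 (-2.53, from 240 reads in shLuc and 13 in shSmyd5) and Col6a3 (-2.15, from 494 and 44 reads) had lower folds than Col3a1. Freed of the GC and length trend, Col3a1 (-1.94), Col5a2 (-1.72), Col1a2 (-1.48) and Col11a1 (-1.03) stayed past 2-fold, while Col1a1 was at -0.95 and Col2a1 at -0.60.

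At day 14 the lowest folds belonged to genes outside types I and III. Among these, Col9a3 and Col9a1 reached an RPKM of 3 in shLuc only at that stage. Col9a3 had a log2 fold of -1.55 (-1.80 to -1.31), Col12a1 -1.54 (-1.61 to -1.47), Col6a2 -1.33 (-1.43 to -1.23), Col9a1 -1.31 (-1.53 to -1.10) and Col14a1 -1.25 (-1.35 to -1.16). Col11a1 (-1.20), Col5a2 (-1.17), Col6a3 (-1.11) and Col1a2 (-1.02) were also past 2-fold. Freed of the GC and length trend, Col12a1 was at -1.36, Col14a1 at -1.25, Col1a2 at -1.20, Col3a1 at -0.96 and Col1a1 at -0.92. Col3a1 was at -0.87 (-0.88 to -0.86), Col1a1 at -0.69 (-0.70 to -0.68), Col6a1 at -0.68, Col9a2 at -0.54 and Col5a1 at -0.46. Col2a1 (0.17, 0.07 to 0.26) and Col18a1 (0.21, 0.16 to 0.25) were the 2 genes above 0, and both lay below 0 once freed of the GC and length trend (-0.040 and -0.018).

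**Figure D3:**
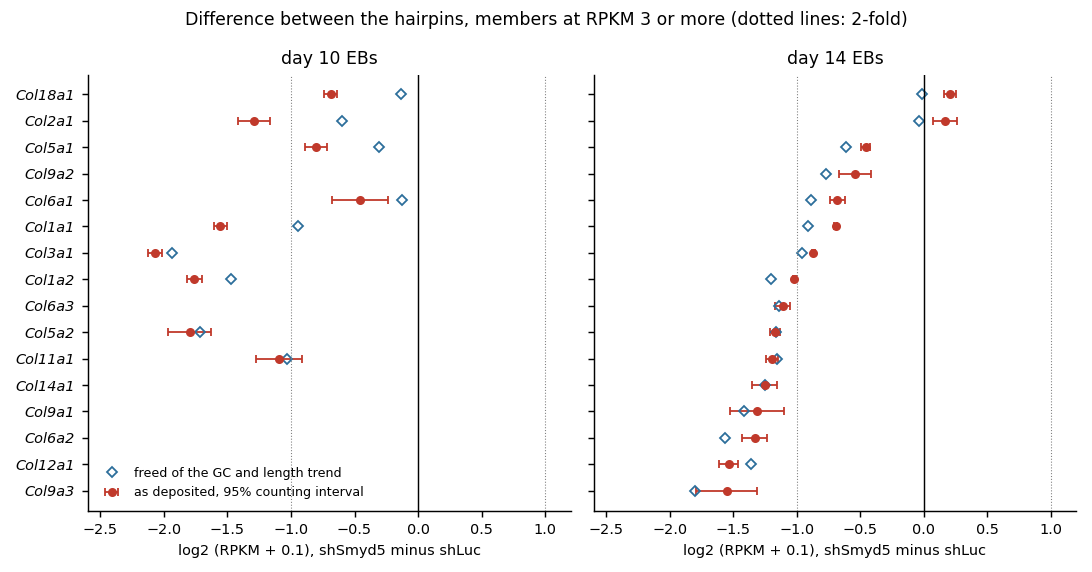
Log2 difference of RPKM + 0.1, shSmyd5 minus shLuc, at day 10 (left) and day 14 (right) for the collagens with an RPKM of 3 or more in 1 or both libraries. Red circles are the deposited values with the 95% counting interval, open blue diamonds the values freed of the GC and length trend, and dotted lines mark 2-fold; all 9 circles at day 10 and 14 of 16 at day 14 are left of 0.

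Of the 16 genes that reached an RPKM of 3, 13 were lower in shSmyd5 both at day 10 and at day 14. The exceptions were Col18a1 and Col2a1, which were lower at day 10 only, and Col9a1, which was lower at day 14 only. Among the 9 genes at an RPKM of 3 at both stages, 6 were 2-fold lower at day 10, 3 at day 14 and 3 (Col1a2, Col5a2 and Col11a1) at both. For 15 of the 16 genes, all except Col9a1, the shSmyd5 level of day 14 lay between the shLuc levels of day 10 and day 14. Col18a1 and Col2a1 were among the 15 although their shLuc level fell between these days. A gene whose rise in shLuc exceeds its difference between hairpins at day 14 lies there if it is lower in shSmyd5. The share over all genes was not computed, so this count is a description only. The gain from day 10 to day 14 was 5.95-fold in shLuc and 10.8-fold in shSmyd5 for Col1a1, 8.28-fold and 13.9-fold for Col1a2, and 4.64-fold and 10.7-fold for Col3a1. For the type VI chain Col6a2 it was 7.09-fold in shLuc and 5.31-fold in shSmyd5, and for Col12a1 20.9-fold and 9.09-fold, so the gap of these genes was wider at day 14 than at day 10.

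Before day 10 there were few expressed collagens to compare. In ES cells Col18a1 was the single gene at an RPKM of 3, with a log2 fold of -1.61 (-1.70 to -1.53) and of -0.65 freed of the GC and length trend; 11.3% of all genes were 2-fold lower there and 4.52% higher. The fold rests on 1557 reads in shLuc and 3585 in shSmyd5. At 24 h and at day 6, Col9a3 and Col18a1 were the genes at that RPKM, and 0 of the 2 passed 2-fold in either direction. Over all genes, 13% were higher and 4.26% lower at 24 h, and 8.18% were higher and 19.4% lower at day 6. Col9a3 had a log2 fold of 0.81 (0.63 to 0.99) at 24 h and 0.78 (0.69 to 0.87) at day 6, so that its sign was positive in early EBs and negative at day 14. Freed of the GC and length trend these were 0.15 and 0.89. Col18a1 had 0.27 at 24 h, where it turned to -0.34 once freed of that trend, and -0.94 at day 6. The median log2 fold of all genes at an RPKM of 3 in both libraries was -0.27 at day 6, and relative to it the fold of Col9a3 was 1.05. Of the genes that reached an RPKM of 1 but not 3 at day 6, Col1a1 (2.06, from 110 reads in shLuc and 554 in shSmyd5), Col11a1 (0.81) and Col5a1 (0.42) were higher in shSmyd5. Col9a2 (-0.94) and Col2a1 (-0.43) were lower. Col1a2, under an RPKM of 1, was at 0.85. The signs of Col1a1, Col1a2, Col5a1 and Col11a1 were thus opposite to those of day 10. At 24 h Col1a1 was at -1.81, from 45 and 14 reads.

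In the fit over all 5 stages, with the stage as a block and the stages as the only repeats, no collagen passed the test of a shared effect of the knockdown (edgeR quasi-likelihood test, adjusted p under 0.05 in 0 of 16 tested). No gene of the 12277 did, although 1425 had an unadjusted p under 0.05. Among the 16 collagens, 5 had an unadjusted p under 0.05, all of them lower in shSmyd5, where 5.93% of all tested genes were lower at that level. These were Col6a3 (log2 effect -2.24, adjusted p = 0.180), Col3a1 (-1.90, adjusted p = 0.232), Col14a1 (-1.85, adjusted p = 0.281), Col9a2 (-0.90, adjusted p = 0.343) and Col2a1 (-0.68, adjusted p = 0.410). In shSmyd5, Col3a1 had 0 reads in ES cells, at 24 h and at day 6, Col6a3 at 24 h and day 6, and Col14a1 at 24 h. The sizes of their effects therefore depend on the prior count of the fit. The same limit applies to Adamts2, Dcn, Fbn1 and Fmod, named below, which also had libraries at 0. The shared effect was below 0 in 15 of 16 collagens, all but Col23a1, with a median of -0.72 against -0.01 over all tested genes. For Col9a3 (-0.02) the sign depended on the fit. With limma 0 genes passed, with DESeq2 333, among them Col14a1, and without the filter on mean RPKM 163 genes passed, among them Col3a1 and Col6a3. A difference of the knockdown effect between day 6 to day 14 EBs and the 2 earlier stages was not detected for any of the 16 collagens (lowest adjusted p = 0.720) nor for any gene, with 644 genes at an unadjusted p under 0.05 and 71 called by DESeq2.

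Chains of 1 molecule did not keep equal ratios. Type I collagen is mostly a heterotrimer with more α1 than α2 chains. The ratio of Col1a1 to Col1a2 RPKM was 1.39 in shLuc and 1.60 in shSmyd5 at day 10 and 0.999 and 1.25 at day 14. The ratio of Col5a1 to Col5a2 was 1.72 and 3.49 at day 10 and 0.726 and 1.19 at day 14. In both pairs the ratio was higher in shSmyd5 and lower at the later stage. At day 14 the ratio of Col6a1 to Col6a2 was 1.96 in shLuc and 3.10 in shSmyd5 and that of Col6a1 to Col6a3 was 2.49 and 3.37, whereas Col11a1 to Col5a2 was 0.571 and 0.559. These ratios compare libraries without repeats, and GC content differs between the chains (61.0% in Col1a1 and 55.6% in Col1a2, 58.0% in Col5a1 and 49.7% in Col5a2).

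Genes that make, trim or bind collagen did not all share the direction of the chains. Of 23 genes of collagen biosynthesis and crosslinking, 20 were tested and 19 rose from early to late stages, but their shared effect of the knockdown had a median of 0.32, with 6 of 20 below 0 and none called. At day 10, 4 of 18 expressed genes of this list were 2-fold higher in shSmyd5 and 1 lower, and at day 14, 6 of 20 were higher and none lower. For this and the lists below, 30% of all tested genes rose with stage and 26% fell. The limit that the filter on mean RPKM sets on counts of rises holds for them too. Of all expressed genes, 3.15% were 2-fold higher and 6.51% lower at day 10, and 3.17% and 4.07% at day 14. The highest shared effects in this list were those of Plod2, a lysyl hydroxylase (1.44, adjusted p = 0.11), and Loxl2, a lysyl oxidase (1.43, adjusted p = 0.09). The lowest were those of Loxl1 (-0.95) and Loxl3 (-0.94). Of 17 genes of procollagen processing and cleavage, 10 were tested, 7 rose and 3 fell with stage, and the shared effect had a median of -0.12. Its lowest values belonged to the procollagen N-proteinases Adamts2 (-1.64) and Adamts3 (-0.80). Of 10 receptor genes, 3 were tested and all 3 rose with stage, and their shared effects lay at -0.37 for Itgb1, -0.18 for Mrc2 and -0.13 for Ddr1.

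Among 13 fibril partners, 10 were tested and all 10 rose with stage. Their shared effect had a median of -0.65, with 8 of 10 below 0 and none called. The small leucine-rich proteoglycans Fmod (-2.16, adjusted p = 0.27) and Dcn (-1.59, adjusted p = 0.19), which bind type I fibrils, were lowest. The RPKM of Dcn was 13.5 in shLuc and 5.06 in shSmyd5 at day 10 and 188.5 and 79.4 at day 14. The highest was Sparc (1.73), a glycoprotein that is also a product of parietal endoderm. The type IV genes Col4a1 and Col4a2 had the opposite sign to most other collagens, with an RPKM of 287.4 and 133.4 in shLuc and of 945.6 and 442.9 in shSmyd5 at day 14. Of the 6 type IV genes 3 were tested, with shared effects of 1.52 (Col4a1), 1.72 (Col4a2) and -0.87 (Col4a5), none of them called.

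**Figure D4:**
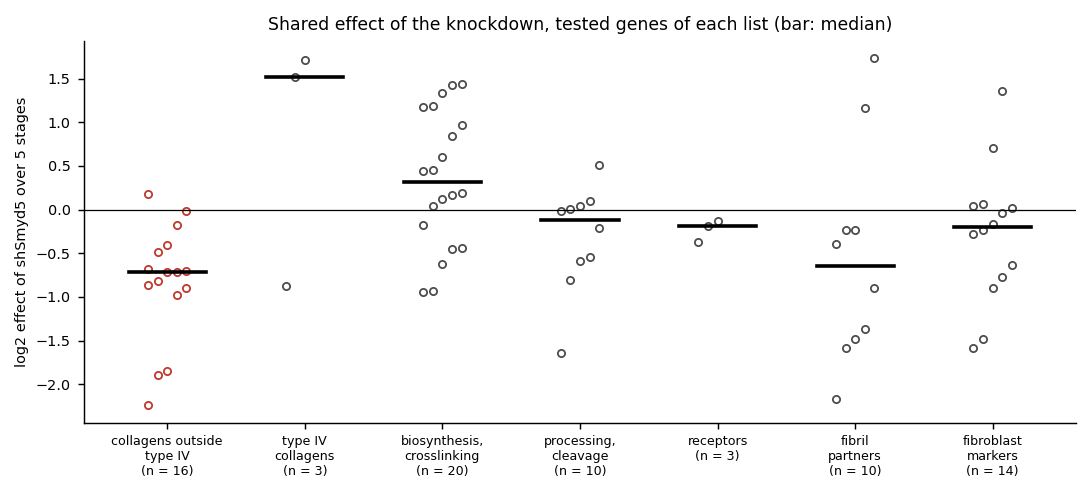
Shared log2 effect of shSmyd5 over the 5 stages (vertical axis) for each tested gene of the collagens outside type IV, the type IV collagens, the collagen pathway lists and the fibroblast markers, with a bar at the median. The collagens outside type IV have a median of -0.72 with 15 of 16 points below 0, and the biosynthesis and crosslinking genes have a median of 0.32.

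In a mixture such as an EB, fewer cells of a type and less RNA per cell cannot be told apart. Of 18 markers of fibroblasts and mesenchyme, 4 of which are also fibril partners, 14 were tested, and 13 rose and 1 fell with stage. Their summed RPKM was 93.0 to 187.2 in the 6 libraries up to day 6, 1001 in shLuc and 630.5 in shSmyd5 at day 10, and 2278 and 1625 at day 14. In ES cells the sum was 182.7 in shLuc and 187.2 in shSmyd5. Most of it came from Vim (93.6 and 97.4) and Fn1 (79.0 and 81.9). Fap was the only marker of this list at 0 reads at day 10 in either hairpin and at day 14 in shSmyd5. At day 10, 4 of 12 expressed markers were 2-fold lower in shSmyd5 and 1 higher (median log2 fold -0.86), and at day 14, 5 of 14 were lower and none higher (median -0.66). In ES cells 7 of the 18 were at 0 reads in shLuc and 6 in shSmyd5. The shared effect of this list had a median of -0.20, with 9 of 14 below 0 and none called. Its highest values were those of the receptors Pdgfra (1.36) and Pdgfrb (0.70), and its lowest those of Dcn (-1.59) and Fbn1 (-1.48). Pdgfra was the 1 marker counted as 2-fold higher in shSmyd5 at day 10 (log2 fold 1.38), and it was also higher at day 14 (0.63). Which cells of the EBs gave its RNA was not tested. Pdgfrb (-0.09 and -0.18), Dcn (-1.40 and -1.25) and Fbn1 (-0.99 and -0.78) were lower at day 10 and day 14. The part of these markers in the difference of collagen levels between hairpins was not tested. Of 13 markers of cartilage and bone, 4 were tested and 3 rose with stage. Their summed RPKM was 31.2 in shLuc and 24.1 in shSmyd5 at day 10 and 37.5 and 18.5 at day 14, and Ibsp and Bglap were at 0 reads in both libraries of day 14.

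Other cell type lists differed in direction. The 17 endoderm markers, all tested, include Sparc, Col4a1 and Col4a2, which were also counted in lists above. Of the 17, 17 rose with stage, and 13 at day 10 and 11 at day 14 were 2-fold higher in shSmyd5. Their summed RPKM at day 14 was 5741 in shLuc and 8775 in shSmyd5. Sparc alone had 1377 and 3028 there, Col4a1 287.4 and 945.6, and Col4a2 133.4 and 442.9. Afp (2512 and 2332) and Ttr (784.7 and 653.4) were lower in shSmyd5. Of the markers expressed at day 10, 4 of 4 for cardiac muscle were 2-fold higher in shSmyd5 (median log2 fold 1.33), 6 of 6 for neural cells and 2 of 7 for endothelium were 2-fold lower, and 0 of 4 for epithelium and 0 of 6 for ES cells passed 2-fold. Of those expressed at day 14, 2 of 6 for endothelium, 5 of 6 for neural cells and 4 of 6 for ES cells were 2-fold lower in shSmyd5, and 0 of 5 for cardiac muscle and 0 of 4 for epithelium passed 2-fold in either direction. Their part in the collagen levels was not tested.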

How the data were processed

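Single-end reads of polyA RNA were mapped to mm9 by the authors with Bowtie2 and CASAVA (versions not given in the sources used here), and the deposited tables list, for each RefSeq transcript, whole read counts and RPKM values scaled by the authors to transcript length and library size. In 100% of values over 200 reads the RPKM lay within 1% of what count, length and library size give. How reads shared by similar genes were assigned is not given. The 10 libraries were grouped by GEO's labels, 1 per hairpin and stage. The collagens and all gene lists were chosen with earlier results of these data known. Collagens at an RPKM of 3 or more in a library were described with every value, the others by range. Of each further list at most the 2 highest and 2 lowest tested genes by shared effect were named. Further markers were named for 0 reads or for their part in a summed RPKM. Folds used log2 (RPKM + 0.1); a 2-fold difference was counted where 1 or both libraries reached an RPKM of 3. Read counts of genes whose mean RPKM was 1 or more were tested with the edgeR 4.0.16 quasi-likelihood test (TMM factors, adjusted p under 0.05) with stage as a block (4 residual degrees of freedom, 3 for the difference between stages). The p-values rest on how far the difference between hairpins varied between stages, not on the spread between cultures. The fits were also run on simulated reads with known changes. Apart from these changes the simulated reads had no course over stages, no GC trend and a fixed spread. That run cannot show how the fits handle such features of the real data. Alternatives used DESeq2 1.42.0, limma 3.58.1, other scalings, filters, pseudocounts, an offset or trend for GC content and length, summed transcripts and left-out stages. Gene positions, GC content and exons came from GENCODE mouse release M1 on NCBIM37, which matched 37 of 37 collagens. Scripts ran in R 4.3.3 and Python 3.11.15 with scipy 1.17.1, pandas 2.3.3, numpy 2.4.6 and matplotlib 3.10.9.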

Additional observations from a re-analysis of the deposited data

How the results depend on the processing

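Collagens 2-fold lower at day 10 numbered 6, and 10 with an RPKM minimum of 1 and 11 with no RPKM filter; at day 14 the count of 9 lower stayed within 1.5 times under every alternative, and 1 was higher with no RPKM filter. In ES cells 1 was lower, but 2 with an RPKM minimum of 1, 4 with no filter (and 1 higher) and 0 when freed of GC content and length. At 24 h 0 passed, but 2 higher and 6 lower with no filter and 1 higher at a fold of 1.5. At day 6 0 passed, but 1 higher with an RPKM minimum of 1, 3 higher and 1 lower with no filter, 1 higher and 1 lower at a fold of 1.5, 2 higher (Col1a1 and Col9a3) with TMM factors, which moved the median fold of all genes by 0.35 (log2), and 1 higher relative to that median. Freed of GC content and length, Col18a1 reversed at 24 h (-0.34) and at day 14 (-0.018), and Col2a1 at day 14 (-0.040). For the shared effect no gene was called, but 333 with DESeq2, 163 with no filter and 71 with a newer quasi-dispersion estimate of edgeR (chosen after seeing the data), of which 1 (Col14a1), 2 (Col3a1, Col6a3) and 0 were collagens outside type IV; with a stage left out the number of genes ran from 0 to 7. Its sign turned for Col9a3 (0.016 with no filter, 0.026 with the newer estimate, 0.60 with no stage block, 0.096 with the GC and length offset, -0.35 to 0.37 with a stage left out) and for Col5a1 (0.080 with that offset). With no filter 29 of 37 collagens were called late against early, counted in either direction. With the filter on mean RPKM 14 of 16 were, all of them rises. The share of all genes called with no filter is not given here, so the count of 29 cannot be weighed against it. Col18a1 turned to -0.090 with the offset, and Col9a3 ran from -2.70 to 0.53 (without 24 h EBs) with a stage left out. Col18a1 and Col9a3 passed without ES cells (1.02, adjusted p = 0.0133, and -2.70, adjusted p = 0.00254). Both also passed without day 14 (1.03, adjusted p = 0.0283, and -1.75, adjusted p = 0.0110), with no filter and with DESeq2. Col18a1 passed with library totals only (0.87, adjusted p = 0.0254), limma and the newer estimate, and Col9a3 with the offset (-1.42, adjusted p = 0.0248). Col9a2 lost its call without day 14 (0.99, adjusted p = 0.248). For the difference of the effect between stages, 71 genes passed with DESeq2 and 0 to 1 with a stage left out. The causes were not tested. Without the 2 ES libraries, the shallower of which held 3895537 reads in genes, 16 of 18 tested collagens were below 0. The stages have 1 library per hairpin, so depth limits counting error only.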
